A study of Arabidopsis thaliana with 8 samples.

Results

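The genes described are *MIR397a*, *MIR397b*, *MIR398a*, *MIR398b*, *MIR398c*, *MIR408* and *MIR857*, which encode the copper-linked miRNAs of *Arabidopsis thaliana*. They were chosen by name from the TAIR10 annotation and make up 7 of 326 annotated MIR genes. Each gene was given the 100-bp genome windows it overlaps, which came to 19 of 885 MIR gene windows and of 1196681 windows in the genome. Windows were numbered by position divided by 100 and rounded down. All 7 genes had 21-nt counts in each of the 8 libraries.

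Small RNAs (sRNAs) were sequenced from whole 18-day-old seedlings of 4 genotypes in the Col-0 background, with 2 libraries each. WT is Col-0 itself, and *hot3-2* and *hot3-3* are T-DNA insertion alleles of *HOT3*, which encodes the translation initiation factor eIF5B1. *HOT3-EYFP* is the complementation line, in which *HOT3::HOT3-EYFP*, under the promoter of *HOT3*, was put into *hot3-2*, so its plants also carry that insertion. No group had a copper treatment, and the number of independent complementation lines pooled or sequenced is not given in the sources used here.

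When copper is scarce, the transcription factor SPL7 raises most of these miRNAs in *Arabidopsis*, and they lower mRNAs of copper proteins that the plant can spare. miR398 acts on the copper/zinc superoxide dismutases *CSD1* and *CSD2* and their copper chaperone *CCS*, miR397 and miR857 on laccases, and miR408 on laccases and plantacyanin. A miRNA is cut from a hairpin as a duplex of a 5′ arm (5p) and a 3′ arm (3p), of which usually 1 strand stays bound to an Argonaute protein and guides it, while the other is lost.

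The mature sequences are shown because 2 of the results below turn on which gene and which arm a read can be placed in. They were read from the TAIR10.1 genome at the coordinates of its RefSeq annotation, and bases 2 to 8, the seed, are in capitals. The duplex strands that the annotation lists come from both arms in *MIR398a*, *MIR398b*, *MIR398c* and *MIR408*, and from 1 arm in the other genes.
miR397a: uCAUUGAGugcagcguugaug
miR397b: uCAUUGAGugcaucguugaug
miR398a-5p: aAGGAGUGgcaugugaacaca
miR398b-5p and miR398c-5p: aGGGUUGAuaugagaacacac
miR398a-3p: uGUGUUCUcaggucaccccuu
miR398b-3p and miR398c-3p: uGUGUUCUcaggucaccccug
miR408-5p: aCAGGGAAcaagcagagcaug
miR408-3p: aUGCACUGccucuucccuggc
miR857: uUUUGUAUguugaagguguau

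The miR397 pair shared the seed CAUUGAG and differed at 1 base, G13U, counted from the 5′ end of miR397a. The 3p strands of the miR398 genes shared the seed GUGUUCU. miR398a-3p differed from miR398b-3p at 1 base, U21G, the last of the strand, so that a 20-nt read without the last base is the same for all 3 genes. The 5p strands were further apart, with 17 bases that differ between miR398a-5p and miR398b-5p. Both mature strands of *MIR398b* and *MIR398c* were identical and had 2 exact places in the genome, whereas each of the other mature sequences had 1. The methods give settings for reads with more than 1 place, and for mismatches, only for the alignment to 45S rDNA, and how such reads were placed in the window counts is not given in the sources used here. The split of counts between *MIR398b* and *MIR398c* is therefore uncertain.

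The hairpins of *MIR398a* and *MIR398b* are shown in DNA letters, with the mature strands in capitals, because the edge of a window separates their arms.
MIR398a: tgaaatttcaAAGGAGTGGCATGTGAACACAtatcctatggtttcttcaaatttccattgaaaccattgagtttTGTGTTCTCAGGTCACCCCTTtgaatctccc
MIR398b: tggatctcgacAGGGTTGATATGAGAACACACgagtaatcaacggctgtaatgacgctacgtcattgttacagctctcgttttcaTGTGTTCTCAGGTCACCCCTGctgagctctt

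*MIR398a* (AT2G03445) lies at chr2:1040938-1041042 on the plus strand, with miR398a-5p in the window from 1040900 and miR398a-3p in the window from 1041000. *MIR398b* (AT5G14545) lies at chr5:4691022-4691137 on the plus strand, with its 5p strand in the window from 4691000 and its 3p strand in the window from 4691100. *MIR398c* (AT5G14565) lies at chr5:4694694-4694808 on the plus strand, and both of its strands start in the window from 4694700. *MIR408* (AT2G47015) lies at chr2:19319814-19320031 on the plus strand and has its arms in the windows from 19319800 and 19319900. *MIR397a* (AT4G05105) lies at chr4:2625950-2626056 on the plus strand, and *MIR397b* (AT4G13555) at chr4:7878652-7878760 on the minus strand. *MIR857* (AT4G13554) lies on the same strand at chr4:7878185-7878561 and shares no window with *MIR397b*. The counts carry no strand, so sRNAs from the strand opposite to a hairpin are included in every value.

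Total counts of 18 nt to 26 nt ranged from 6793502 to 8210328 per library, of which 816672 to 999484 were of 21 nt. Windows of 45S rDNA took a mean of 44.2% of the counts for WT, 33.9% for *hot3-2*, 40.7% for *hot3-3* and 52.1% for *HOT3-EYFP*. Levels are given as CPM, counts per 1000000 counts of 18 nt to 26 nt, and move with this share. Fold changes were instead scaled by TMM within the 21-nt class, and with the total count as library size the median log2 fold change of all features moved from 0.03 to 0.25 in *hot3-2* against WT and from 0.01 to -0.27 in *HOT3-EYFP* against WT. The replicates of a genotype differed by more than counting error (chi-square per degree of freedom of 3.57 to 5.07 over windows), and p-values measure the spread between these libraries. Whether libraries overlapped at a gene or window is described on counts before this scaling. The share of all features without such overlap was not determined. Each statement below that libraries did not overlap is therefore a description of counts and not a test. *HOT3* itself had 17 to 535 sRNA counts, which are not a measure of its mRNA.

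Together the 7 genes held 34053 to 51323 counts of 21 nt per library, and 21 nt made up 93.6% or more of their counts. The sum was 6139.5 ± 237 CPM (SD, n = 2) for WT, 6242 ± 934 for *hot3-2*, 6186 ± 185 for *hot3-3* and 4864 ± 25.4 for *HOT3-EYFP*. *MIR398b* and *MIR398c* together gave 90.0% to 93.6% of the sum in each library. *MIR408* gave 5.97% to 9.23%, *MIR398a* 0.234% to 0.626%, *MIR397b* 0.0449% to 0.134%, *MIR397a* up to 0.0587% and *MIR857* up to 0.0468%. In WT the order of levels was *MIR398b* (3629 ± 94.1 CPM, SD, n = 2), *MIR398c* (1903 ± 125), *MIR408* (563 ± 17.3), *MIR398a* (36.5 ± 4.2), *MIR397b* (5.0 ± 2.1), *MIR857* (1.8 ± 1.4) and *MIR397a* (1.1 ± 0.1). The replicates of *MIR857* overlapped the replicates of *MIR397a* in WT, and those of *MIR398b* and *MIR398c* overlapped in *hot3-2* and *hot3-3* and gave no clear order there. The other neighbours in the order did not overlap in WT.

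**Figure D1:**
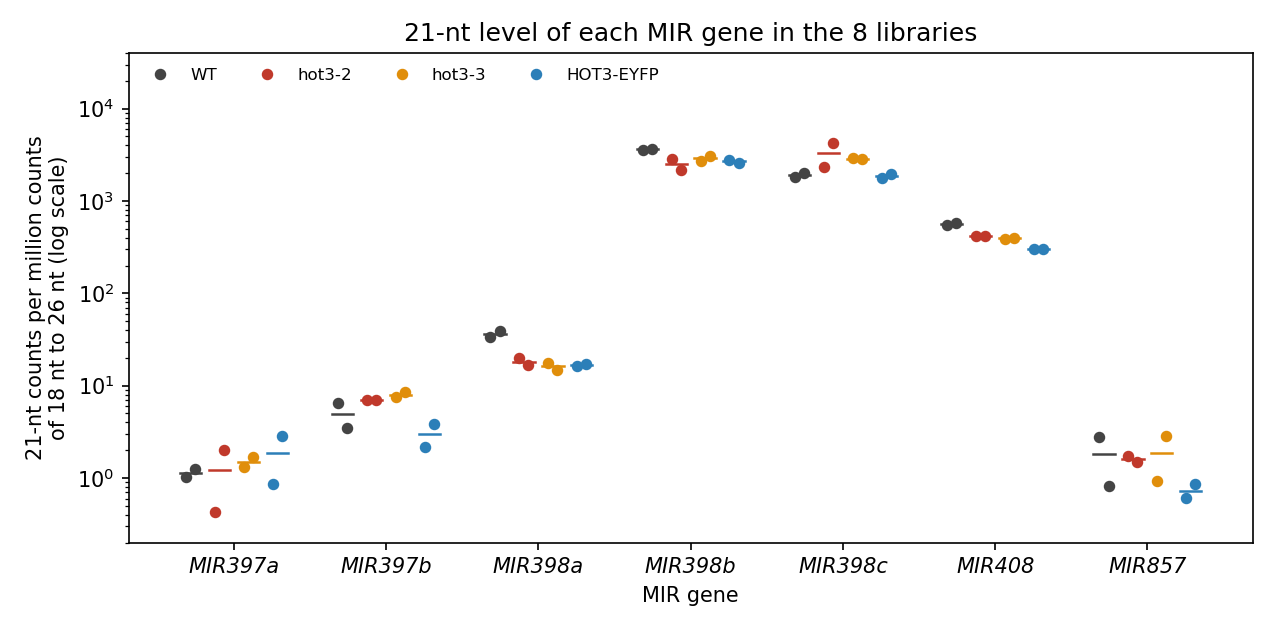
The 21-nt level of each of the 7 MIR genes is plotted on a log scale in CPM, with a point for each of the 8 libraries and a line at the mean of the 2 libraries of a genotype. *MIR398b* and *MIR398c* lie above all others, *MIR398a* is higher in WT (36.5 CPM) than in the other genotypes, and *MIR397a*, *MIR397b* and *MIR857* lie below 10 CPM in every library.

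The genotypes were compared with WT to ask whether loss of *HOT3* changes the copper-linked miRNAs and whether *HOT3-EYFP* reverses it. A gene was called if edgeR's quasi-likelihood test gave a 2-fold change or more with p under 0.01 after Benjamini-Hochberg adjustment over all features that had 10 counts or more in 2 or more libraries. At 21 nt all 7 genes passed this filter. *MIR398a* was the only one called lower in *hot3-2* against WT, beside 7.08% of all features and 22.3% of MIR genes called in either direction. It was also the only one called in *hot3-3* against WT, where the background was 5.58% of features and 19.3% of MIR genes. None of the 7 was called in *HOT3-EYFP* against WT (0.653% of features and 5.58% of MIR genes called, with 2 of the 7 genes at an unadjusted p under 0.05), and none by DESeq2. None was called in *HOT3-EYFP* against *hot3-2* (9.88% of features and 21.3% of MIR genes called, 1 gene at an unadjusted p under 0.05) or in *hot3-3* against *hot3-2* (0.211% and 0.508% called, 1 gene), by edgeR or by DESeq2. None was called in both alleles against WT and *HOT3-EYFP* together (10.5% and 25.4% called, 5 genes at an unadjusted p under 0.05), again by either tool. The median log2 fold change of the 7 genes was -0.39 in *hot3-2* and 0.02 in *hot3-3* against WT, beside 0.03 and 0.004 over all features and 0.09 and 0.03 over the other 190 MIR genes tested. Both medians of the 7 genes are the values of *MIR857*, a gene of few counts (SE of 0.67 and 0.65). In *HOT3-EYFP* against WT the median was -0.44 for the 7 genes, 0.005 over all features and -0.20 over the other MIR genes.

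**Figure D2:**
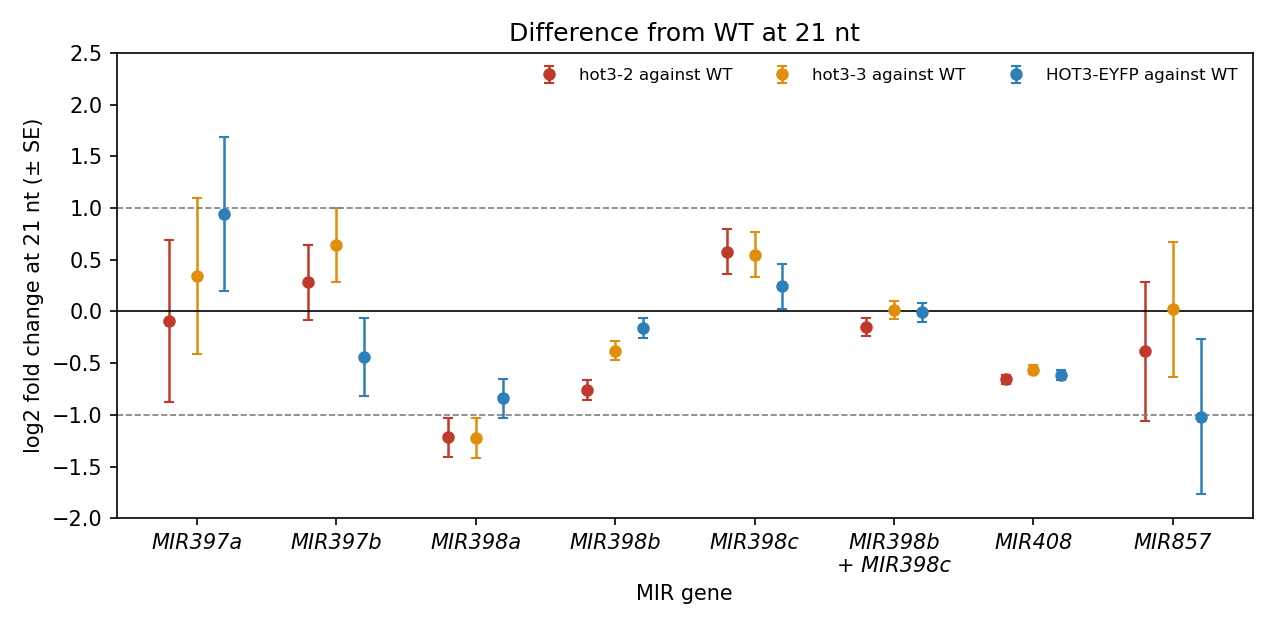
Log2 fold changes against WT at 21 nt from edgeR are plotted with their standard errors for the 7 MIR genes and for *MIR398b* and *MIR398c* summed, and dashed lines mark a 2-fold change. *MIR398a* lies beyond the line in *hot3-2* and *hot3-3*, *MIR408* lies between -0.66 and -0.56 in all 3 genotypes with short bars, and the sum of *MIR398b* and *MIR398c* lies between -0.15 and 0.01.

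*MIR398a* encodes the miR398 of lowest level in these seedlings. Its 21-nt counts were 228 and 286 for WT, 140 and 123 for *hot3-2*, 133 and 115 for *hot3-3* and 134 and 122 for *HOT3-EYFP*. Both WT libraries were higher than the 6 others, and the 3 genotypes that carry a *hot3* allele overlapped. The log2 difference from WT was -1.22 ± 0.19 (SE) in *hot3-2* (edgeR adjusted p = 0.0016) and -1.22 ± 0.19 in *hot3-3* (adjusted p = 0.0018). In *HOT3-EYFP* it was -0.84 ± 0.19 (adjusted p = 0.039), which missed the limit, and with features of at least 50 counts it was -1.07 and passed it (adjusted p = 0.0045). The call in *hot3-2* was lost with the total count as library size (-0.9995) and without WT replicate 2 (-1.10, adjusted p = 0.017) or *hot3-2* replicate 2 (-1.21, adjusted p = 0.011). The call in *hot3-3* was lost with counts in other MIR genes as library size (-0.86) and without WT replicate 2 (-1.11), *hot3-3* replicate 1 (-1.33) or *hot3-3* replicate 2 (-1.10), with adjusted p of 0.011 to 0.026.

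The sum over the gene joins arms that moved in opposite directions. The window of miR398a-5p, the strand usually lost, had 9 and 9 counts of 21 nt for WT, 55 and 66 for *hot3-2*, 45 and 40 for *hot3-3* and 9 and 7 for *HOT3-EYFP*. All 4 libraries of the alleles were higher than the 4 others. The window of miR398a-3p, the strand that guides cleavage of *CSD1*, *CSD2* and *CCS* mRNAs, had 219 and 277 counts for WT, 85 and 57 for *hot3-2*, 88 and 75 for *hot3-3* and 125 and 115 for *HOT3-EYFP*. Here the 4 libraries of the alleles were lowest, WT was highest, and *HOT3-EYFP* lay between them without overlap. Reads of miR398b-3p with a mismatch at the last base can also fit this window. Their part in these counts, and in the sum over the gene, was not tested.

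Each window was also fitted as a row of its own, an alternative chosen after the data were seen, in which 7.07% of features were called in *hot3-2* against WT and 5.78% in *hot3-3*. The share called was 0.77% in *HOT3-EYFP* against WT, 0.229% in *hot3-3* against *hot3-2* and 10.9% in both alleles against WT and *HOT3-EYFP*. The miR398a-5p window had fewer than 10 counts in every library of WT and *HOT3-EYFP*, so it passed the filter only through the alleles, where it is high, and its calls have this limit. It rose by 2.49 ± 0.29 on the log2 scale in *hot3-2* (edgeR adjusted p = 0.00020) and by 2.06 ± 0.30 in *hot3-3* (adjusted p = 0.0011). In *HOT3-EYFP* it was at 0.01 ± 0.35 against WT and its log2 fold change against *hot3-2* was -2.48 ± 0.30 (adjusted p = 0.00022), in a comparison with 10.1% of features called. With no filter beyond 1 count the values were 2.45 for *hot3-2*, 2.04 for *hot3-3* and -2.52 for *HOT3-EYFP* against *hot3-2* (adjusted p of 2.8e-06, 0.00077 and 1.5e-06). The miR398a-3p window stood at a log2 fold change of -2.03 ± 0.25 for *hot3-2* (adjusted p = 0.00027) and -1.77 ± 0.25 in *hot3-3* (adjusted p = 0.00087). Its difference between *HOT3-EYFP* and WT was -0.86 ± 0.24 (adjusted p = 0.093). *HOT3-EYFP* was above *hot3-2* by 1.18 ± 0.25 (adjusted p = 0.0081), and this call was lost in 9 of 15 alternatives (0.67 with the total count as library size, 0.85 without *hot3-2* replicate 2). The rise of the 5p window in *hot3-3* stood at an adjusted p of 0.010 without WT replicate 1 and 0.014 without WT replicate 2, and the fall of the 3p window in *hot3-3* at 0.015 without *hot3-3* replicate 2. The share of the 5p window in the counts of both arms was 3.55% ± 0.57 (SD, n = 2) for WT, 46.5% ± 10.2 for *hot3-2*, 34.3% ± 0.67 for *hot3-3* and 6.23% ± 0.69 for *HOT3-EYFP*.

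*MIR398b* and *MIR398c* give the same mature strands and most of the miR398 in these seedlings. The 21-nt counts of *MIR398b* were 24201 and 26781 for WT, 19743 and 16237 for *hot3-2*, 20671 and 23698 for *hot3-3* and 23029 and 17951 for *HOT3-EYFP*. WT was highest, and the other genotypes overlapped. The log2 difference from WT was -0.76 ± 0.10 in *hot3-2* (edgeR adjusted p = 0.00038), -0.38 ± 0.10 in *hot3-3* (adjusted p = 0.030) and -0.16 ± 0.10 in *HOT3-EYFP* (adjusted p = 0.47), and none reached 2-fold. Without *hot3-2* replicate 1 the value in *hot3-2* was -1.03 and passed the limit. Over all 21 alternatives it lay between -1.03 and -0.00056. *HOT3-EYFP* was above *hot3-2* by 0.59 ± 0.10 (adjusted p = 0.0017), also under 2-fold.

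As at *MIR398a*, the arms of *MIR398b* differed. The window of miR398b-5p had 11428 and 13019 counts for WT, 16222 and 12858 for *hot3-2*, 16254 and 18818 for *hot3-3* and 15079 and 9832 for *HOT3-EYFP*, and its log2 fold change of 0.01 ± 0.13 for *hot3-2* and 0.35 ± 0.13 in *hot3-3* (adjusted p = 0.14) was not called. The window of miR398b-3p had 12773 and 13762 counts for WT, 3521 and 3379 for *hot3-2*, 4417 and 4880 for *hot3-3* and 7950 and 8119 for *HOT3-EYFP*. The groups did not overlap, with both alleles lowest and *HOT3-EYFP* between them and WT.

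In the fit of single windows the miR398b-3p window stood at a log2 fold change of -2.18 ± 0.08 for *hot3-2* (edgeR adjusted p = 8.8e-08) and -1.68 ± 0.08 in *hot3-3* (adjusted p = 5.9e-07). In *HOT3-EYFP* it was at -0.53 ± 0.08 against WT (adjusted p = 0.0035), less than 2-fold, and above *hot3-2* by 1.65 ± 0.08 (adjusted p = 2.7e-07). The 3 calls held in all 15 alternatives of this fit, but none of these changed where reads that also fit *MIR398c* were placed. The effect of that placement on this window was not tested. The 5p share at *MIR398b* was 47.9% ± 0.98 (SD, n = 2) for WT, 80.7% ± 2.1 for *hot3-2*, 79.0% ± 0.55 for *hot3-3* and 60.1% ± 7.6 for *HOT3-EYFP*.

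*MIR398c* had 12326 and 14433 counts of 21 nt for WT, 16239 and 31819 for *hot3-2*, 22032 and 22155 for *hot3-3* and 14414 and 13781 for *HOT3-EYFP*. In unscaled counts all 4 libraries of the alleles were higher than the others, and *hot3-2* replicate 2 was the highest by far. How common such a separation is over all features was not determined. After scaling by TMM, *HOT3-EYFP* was at 0.24 ± 0.22 against WT (edgeR adjusted p = 0.66). The log2 fold change was 0.58 ± 0.22 in *hot3-2* (edgeR adjusted p = 0.12) and 0.55 ± 0.22 in *hot3-3* (adjusted p = 0.15), and without *hot3-2* replicate 2 the value in *hot3-2* was -0.05. Both arms lie in 1 window of *MIR398c*, so they could not be told apart there.

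Since reads of either arm fit *MIR398b* and *MIR398c* equally, the sum of both genes does not depend on how reads were shared out between them. The sum could still move if reads with more than 1 place were left out, or if reads with a mismatch were placed at *MIR398a*. It was 36527 and 41214 counts for WT, 35982 and 48056 for *hot3-2*, 42703 and 45853 for *hot3-3* and 37443 and 31732 for *HOT3-EYFP*, and the groups overlapped. Its log2 difference from WT was -0.15 ± 0.09 in *hot3-2* (edgeR adjusted p = 0.33), 0.01 ± 0.09 in *hot3-3* (adjusted p = 0.96) and -0.01 ± 0.09 in *HOT3-EYFP* (adjusted p = 0.98), and its sign moved with the scaling, being 0.05, 0.37 and 0.48 with counts in other MIR genes as library size (adjusted p of 0.79, 0.028 and 0.0093). The share of *MIR398c* in this sum moved with genotype, at 34.4% ± 0.90 (SD, n = 2) for WT, 55.7% ± 14.9 for *hot3-2*, 49.96% ± 2.3 for *hot3-3* and 41.0% ± 3.5 for *HOT3-EYFP*. Its part in the lower counts of the miR398b-3p window was not tested. At *MIR398a*, where each mature strand has 1 exact place, the arms differed in the same direction. However, a read of miR398b-3p with 1 mismatch at its last base fits *MIR398a* too. The miR398b-3p window had means of 1890 CPM for WT, 478 for *hot3-2*, 605 for *hot3-3* and 1062 for *HOT3-EYFP*. The miR398a-3p window had 35.2, 9.9, 10.6 and 15.8 CPM in the same order. The part of mismatched miR398b-3p reads in the miR398a-3p window was not tested.

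**Figure D3:**
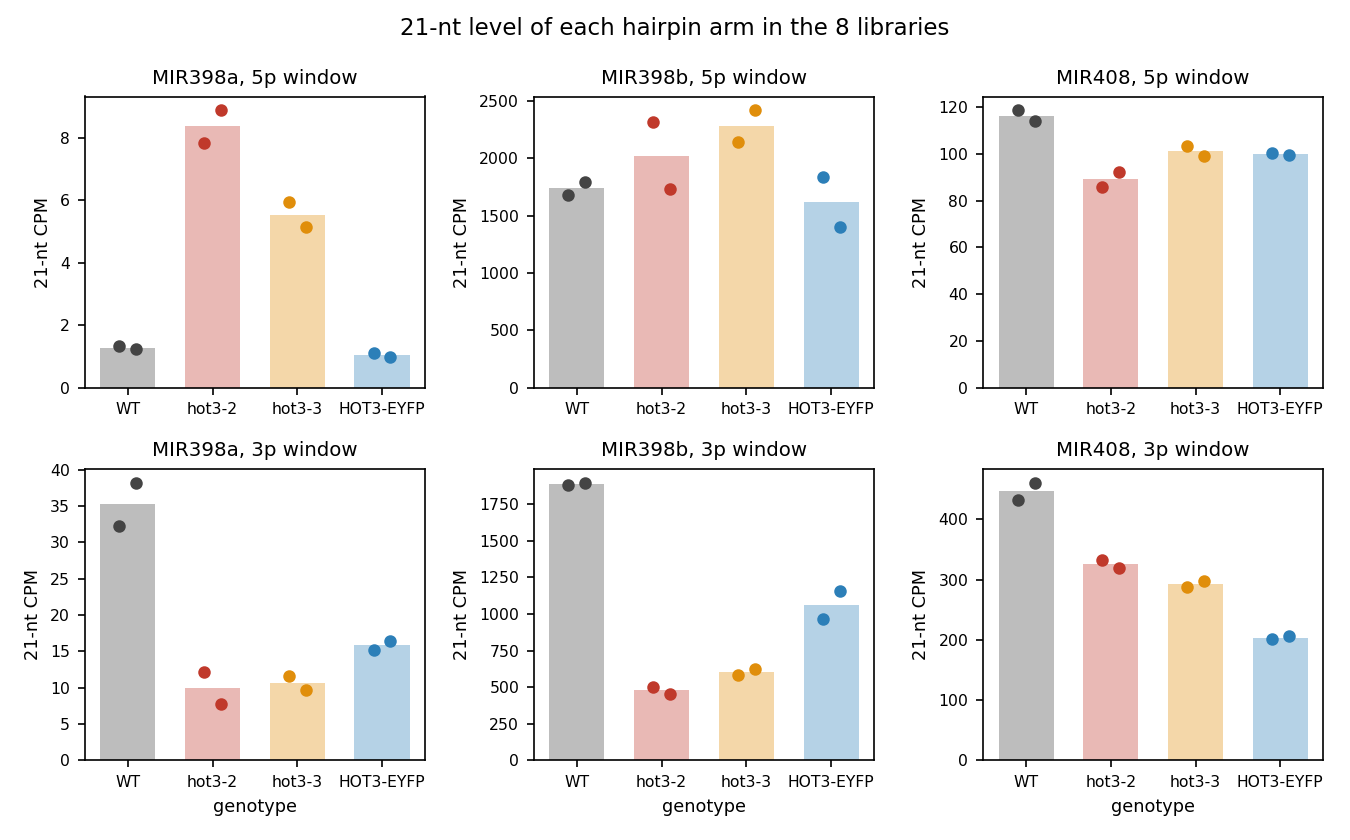
The 21-nt level in CPM of the window of each arm is plotted for *MIR398a*, *MIR398b* and *MIR408*, with a point for each of the 8 libraries and a bar from 0 to the mean of the 2 libraries of a genotype. The miR398a-5p window stands at 8.4 CPM in *hot3-2* and 5.5 in *hot3-3* against 1.3 in WT, and the 3p windows of *MIR398a* and *MIR398b* are lowest in both alleles.

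To see how the arm ratio moved elsewhere, the 40 MIR genes with arms in separate windows and a mean of at least 50 counts were examined. The difference of log2(5p/3p) between the alleles and the 4 other libraries was 3.70 at *MIR398a*, the largest of the 40 in size, 1.75 at *MIR398b*, the 4th largest, and -0.22 at *MIR408*, the 34th. The median size over the 40 genes was 0.47. The value at *MIR398b* may move with the placement of reads that also fit *MIR398c*. That at *MIR398a* rests on 7 to 9 counts in its 5p window in each library of WT and *HOT3-EYFP*. The 3p window of *MIR398a* may also hold mismatched reads of miR398b-3p. The 4 libraries of the alleles did not overlap the 4 others at *MIR398a* and *MIR398b* and overlapped at *MIR408*, beside 32.5% of the 40 genes (13) without overlap. Against WT alone the difference at *MIR398a* was 4.49 for *hot3-2*, 3.77 for *hot3-3* and 0.87 for *HOT3-EYFP*, and at *MIR398b* it was 2.19, 2.03 and 0.72.

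**Figure D4:**
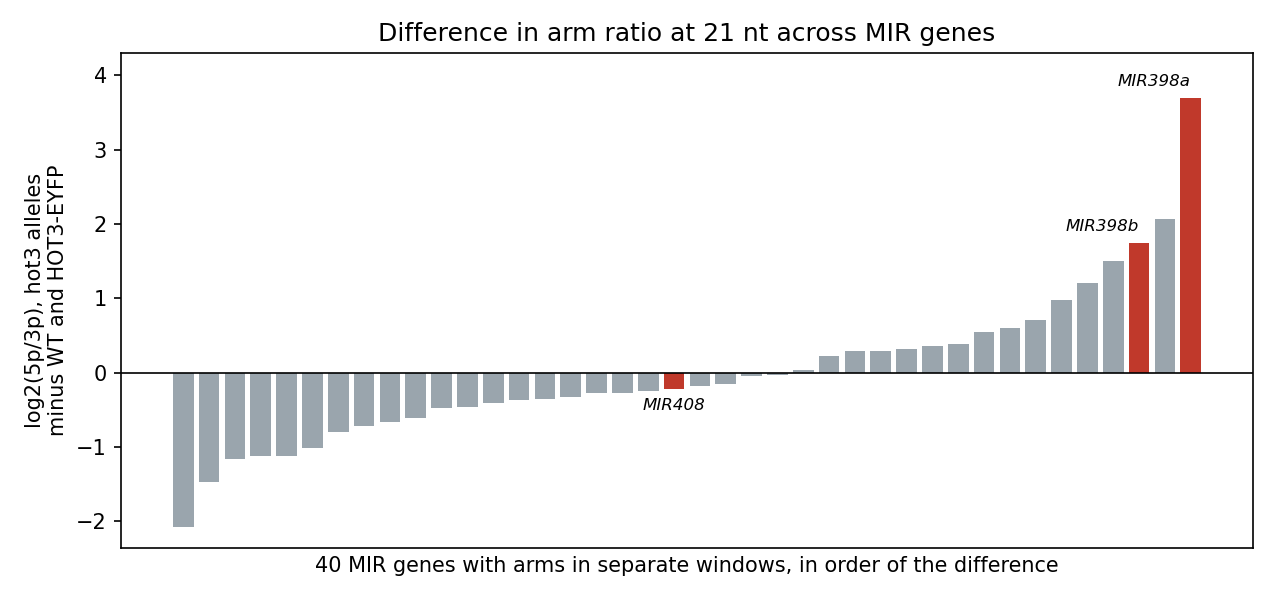
Bars give the difference in log2(5p/3p) of 21-nt counts between both *hot3* alleles (4 libraries) and WT with *HOT3-EYFP* (4 libraries), for 40 MIR genes in order of the difference, with the copper-linked genes in red. *MIR398a* (3.70) stands at the upper end, *MIR398b* (1.75) is well below it among the larger positive values, and *MIR408* (-0.22) lies among the smallest differences. Reads at *MIR398b* also fit *MIR398c*, and how they were placed is not known.

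*MIR408* was lower than WT in all 3 other genotypes. miR408 is known for its targets among laccases and plantacyanin, and is among the most conserved plant miRNAs. Its 21-nt counts were 3743 and 4170 for WT, 2939 and 3066 for *hot3-2*, 2966 and 3095 for *hot3-3* and 2477 and 2146 for *HOT3-EYFP*. In unscaled counts WT was highest and *HOT3-EYFP* lowest, and the 2 alleles overlapped. The log2 difference from WT was -0.66 ± 0.05 in *hot3-2* (edgeR adjusted p = 5.3e-06), -0.56 ± 0.05 in *hot3-3* (adjusted p = 2.4e-05) and -0.62 ± 0.05 in *HOT3-EYFP* (adjusted p = 2.9e-05). These values passed the limit on p but not that of a 2-fold change. Their sign was the same under every alternative, among them the 4 other scalings, but their size moved. It ranged from -0.80 to -0.44 in *hot3-2*, -0.66 to -0.20 in *hot3-3* and -0.89 to -0.12 in *HOT3-EYFP*. All MIR genes together took a mean of 26.2% of the 21-nt counts for WT, 26.2% for *hot3-2*, 23.4% for *hot3-3* and 18.6% for *HOT3-EYFP*. *HOT3-EYFP* differed from *hot3-2* by 0.04 ± 0.05 (adjusted p = 0.61), but this value was -0.45 with the total count as library size (adjusted p = 4.4e-05), -0.32 with features of at least 50 counts (adjusted p = 0.00097) and 0.33 with counts in other MIR genes (adjusted p = 0.0012).

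The guide strand carried most of the *MIR408* counts. The window of miR408-3p had 2937 and 3342 counts for WT, 2336 and 2379 for *hot3-2*, 2184 and 2322 for *hot3-3* and 1651 and 1445 for *HOT3-EYFP*. The window of miR408-5p had 806 and 828, 603 and 687, 782 and 773, and 826 and 701 in the same order. In the fit of single windows the 3p window stood at a log2 fold change of -0.65 ± 0.05 for *hot3-2*, -0.65 ± 0.05 in *hot3-3* and -0.84 ± 0.05 in *HOT3-EYFP* (edgeR adjusted p of 1.6e-05, 2.7e-05 and 1.1e-05). With the total count as library size the value in *HOT3-EYFP* was -1.14 and passed the 2-fold limit. The 5p window was at -0.59 ± 0.08 in *hot3-2* (adjusted p = 0.00081) and 0.08 ± 0.08 in *HOT3-EYFP* (adjusted p = 0.71), and *HOT3-EYFP* was above *hot3-2* by 0.67 ± 0.08 (adjusted p = 0.00029). The 5p share was thus highest in *HOT3-EYFP* (33.01% ± 0.48, SD, n = 2) beside 20.7% ± 1.2 for WT, 21.5% ± 1.3 for *hot3-2* and 25.7% ± 0.98 for *hot3-3*.

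At 22 nt *MIR408* had fewer counts in each library of the alleles than in any other library. Its counts were 50 and 48 for WT, 22 and 15 for *hot3-2*, 27 and 22 for *hot3-3* and 50 and 32 for *HOT3-EYFP*. It was the only one of 3 genes tested at this length that was called, lower in *hot3-2* (-1.74 ± 0.32, edgeR adjusted p = 0.0020) where 4.26% of features were called. It was called higher in *HOT3-EYFP* against *hot3-2* (1.70 ± 0.33, adjusted p = 0.0022, 6.31% called) and lower in both alleles against WT and *HOT3-EYFP* (-1.45 ± 0.23, adjusted p = 0.00028, 6.76% called). In *hot3-3* against WT the value was -1.19 ± 0.31 (adjusted p = 0.030, 2.93% called), with no gene called by edgeR or DESeq2 and 1 gene at an unadjusted p under 0.05. In *HOT3-EYFP* against WT it was -0.04 ± 0.30 (adjusted p = 0.98, 0.649% called), and between the alleles 0.55 ± 0.34 (adjusted p = 0.77, 0.236% called). The call in *hot3-2* was lost with the total count as library size (-1.44, adjusted p = 0.0103), without WT replicate 1 (-1.69, adjusted p = 0.016) and without *hot3-2* replicate 2 (-1.44, adjusted p = 0.041). That in *HOT3-EYFP* against *hot3-2* was lost with the total count (1.05), with features of at least 50 counts (1.25) and without *HOT3-EYFP* replicate 1 (1.49) or *hot3-2* replicate 2 (1.40). Most of the 22-nt counts were in the window of miR408-3p, with 43 and 40 for WT, 16 and 11 for *hot3-2*, 16 and 15 for *hot3-3* and 33 and 23 for *HOT3-EYFP*.

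At 20 nt *MIR398a*, *MIR398b*, *MIR398c* and *MIR408* were tested and none was called by edgeR or DESeq2 in any comparison. Of all features 12.1% were called at this length in *HOT3-EYFP* against *hot3-2* (1 of the 4 genes at an unadjusted p under 0.05), 13.8% in both alleles against WT and *HOT3-EYFP* (3 genes), 0.358% in *HOT3-EYFP* against WT (2 genes) and 0.239% in *hot3-3* against *hot3-2* (0 genes). In *hot3-2* against WT (8.43% of features called) all 4 had an unadjusted p under 0.05, and *MIR398c* was at 0.89 ± 0.26 (adjusted p = 0.046), *MIR398a* at -0.64 ± 0.25 (adjusted p = 0.11), *MIR408* at -0.57 ± 0.14 (adjusted p = 0.021) and *MIR398b* at -0.54 ± 0.16 (adjusted p = 0.051). In *hot3-3* (6.48% called) 3 of the 4 had an unadjusted p under 0.05, and the values had the same signs as in *hot3-2*. *MIR397a*, *MIR397b* and *MIR857* had at most 7 counts per library at 20 nt and at 22 nt, and *MIR398a* at most 6 at 22 nt, so they were not tested there.

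*MIR397a*, *MIR397b* and *MIR857*, whose miRNAs act on laccases, had few counts. *MIR397b* had 44 and 25 counts of 21 nt for WT, 49 and 52 for *hot3-2*, 57 and 66 for *hot3-3* and 18 and 27 for *HOT3-EYFP*. In unscaled counts all 4 libraries of the alleles were higher than the 4 others, but how common this is over all features was not determined. The log2 fold change was 0.28 ± 0.36 in *hot3-2* (edgeR adjusted p = 0.68), where it was -0.11 without WT replicate 2, 0.64 ± 0.36 in *hot3-3* (adjusted p = 0.31) and 0.68 ± 0.26 for both alleles against WT and *HOT3-EYFP* (adjusted p = 0.090). *MIR397a* had 3 to 20 counts per library and *MIR857* 5 to 22, and in both the genotypes overlapped. Their log2 fold changes against WT lay between -1.02 and 0.94 with standard errors of 0.65 to 0.78, so differences of 2-fold were not detectable at this depth. In these 3 genes 21 nt made up 83.9% or more of the counts of *MIR397b* in each library, but as little as 13.6% of those of *MIR397a* and 33.3% of those of *MIR857*.

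Of other MIR genes, those whose 21-nt log2(CPM + 1) over the 8 libraries was most like that of *MIR408* were *MIR472* (Pearson's r = 0.954), *MIR165a* (0.951) and *MIR166e* (0.936), out of 160 with a mean of at least 10 counts. For *MIR398b* and *MIR398c* summed they were *MIR1888a* (0.914), *MIR779* (0.834) and *MIR168b* (0.823), and for *MIR397a* they were *MIR166b* (0.641), *MIR4228* (0.610) and *MIR157b* (0.542). These coefficients describe 8 libraries that share the scaling by total counts, and *MIR165a*, *MIR166b*, *MIR166e*, *MIR157b* and *MIR168b* belong to families whose members can share reads.

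Known partners of these miRNAs were counted in the same way, as sRNAs that lie in their genes and not as mRNA. None of 13 target genes (among them *CSD1*, *CSD2*, *CCS* and 7 laccases) passed the filter. Together they held 7 to 36 counts of 21 nt per library, and *CSD2*, LAC2 and LAC4 had none. Of 11 genes of copper supply and use, 2 were tested and *PETE2*, which encodes plastocyanin, the copper protein of photosynthetic electron transport, was called. Its 21-nt counts were 38 and 66 for WT, 21 and 17 for *hot3-2*, 24 and 26 for *hot3-3* and 81 and 57 for *HOT3-EYFP*. The alleles did not overlap the others, and the log2 fold change was -1.69 ± 0.32 in *hot3-2* (edgeR adjusted p = 0.0054), -1.22 ± 0.31 in *hot3-3* (adjusted p = 0.032, not called) and 2.26 ± 0.32 in *HOT3-EYFP* against *hot3-2* (adjusted p = 0.00071). In these comparisons, in the same order, 7.08%, 5.58% and 9.88% of all features were called. The call in *hot3-2* was lost in 8 of 21 alternatives, among them those without WT replicate 2 (-1.30), *hot3-2* replicate 1 (-1.98) or *hot3-2* replicate 2 (-1.63), with adjusted p of 0.018 to 0.040.

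Of 13 miRNA genes that respond to sulfate or phosphate supply, 9 were tested. Of these, 1 was called in *hot3-2* against WT, beside 22.3% of all MIR genes tested, and 0 in *hot3-3* against WT (19.3%). In *HOT3-EYFP* against *hot3-2* 2 were called (21.3% of MIR genes), and 2 in both alleles against WT and *HOT3-EYFP* (25.4%). *MIR827*, a phosphate-responsive miRNA gene, was called lower in *hot3-2* (-1.49 ± 0.28, edgeR adjusted p = 0.0047) and higher in *HOT3-EYFP* against *hot3-2* (2.20 ± 0.28, adjusted p = 0.00031). Its counts were 77 and 61 for WT, 25 and 34 for *hot3-2*, 45 and 41 for *hot3-3* and 100 and 102 for *HOT3-EYFP*. *MIR399c*, whose miRNA lowers the ubiquitin conjugase PHO2, was called higher in *HOT3-EYFP* against *hot3-2* (1.56 ± 0.32, edgeR adjusted p = 0.0076), with 193 and 200 counts for WT, 70 and 171 for *hot3-2*, 79 and 79 for *hot3-3* and 289 and 241 for *HOT3-EYFP*. *MIR399b*, of the same family, had 69 and 0 counts in the same libraries of *hot3-2*. Whether reads shared within the family moved between these genes was not tested. In *HOT3-EYFP* against WT the log2 fold change was 0.71 ± 0.26 for *MIR827* (adjusted p = 0.22) and 0.59 ± 0.32 for *MIR399c* (adjusted p = 0.42), and neither was called. The call of *MIR827* in *hot3-2* was lost in 7 of 21 alternatives, among them those without WT replicate 1 (-1.26), *hot3-2* replicate 1 (-1.41) or *hot3-2* replicate 2 (-1.80), with adjusted p of 0.012 to 0.037. The call of *MIR399c* was lost in 10 of 21, among them those without either library of WT, *hot3-3* or *HOT3-EYFP* (1.51 to 1.59, adjusted p of 0.013 to 0.032). Whole seedlings were sampled, so fewer cells that make a miRNA and less of it per cell cannot be told apart in any of these values.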

How the data were processed

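Total RNA of 18-day-old seedlings was size-selected to 18 to 40 nt and made into sRNA libraries. The authors trimmed adaptors, processed the reads with their pipeline pRNASeqTools, and deposited raw read counts per 100-bp window, 1 column per read length (18 nt to 26 nt). The submitters' processing notes name cutadapt 4.2, Bowtie, featureCounts 2.0.3 and DESeq2 1.34.0. The methods give ShortStack settings for mismatches and for reads with several places only for the alignment to 45S rDNA, and those behind the window counts are not given in the sources used here. The growth temperature differs between the labels and the methods, and no other data type of the study was used.

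The number of windows per nuclear chromosome matched TAIR10.1. Of 32 mature miRNAs that cross a window edge and have at least 20 counts, 24 had more counts in the window of their leftmost base, which held 85.2% of these counts. A gene was the sum of its windows, and every other window was a row. Rows that had 10 counts or more in 2 or more libraries were fitted by edgeR's quasi-likelihood test (edgeR 4.0.16, limma 3.58.1, R 4.3.3), length by length, on all 8 libraries with genotype as the factor and TMM normalization. A call needed a fold change of 2 and an adjusted p under 0.01 over all rows. The code of the fit was run on simulated counts with the same dispersion in every row. That run does not measure power at few counts or for changes under 2-fold. DESeq2 1.42.0, Python 3.11.15, numpy 2.4.6, pandas 2.3.3 and matplotlib 3.10.9 were also used. For the arm ratio, 0.5 was added to counts before the logarithm. Total counts of 6793502 to 8210328 set the depth, and reads without molecular identifiers are not independent molecules.

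The genes, gene lists and comparisons were chosen with earlier results of these data known. The rule for names took all 7 genes, the 3 MIR genes most like *MIR408*, *MIR397a* and *MIR398b* with *MIR398c*, and list genes that passed the call. The alternatives were a block for replicate number, other scalings, limits and filters, the Wald test of DESeq2, a fit without the genotypes not compared, only the window with the most counts, 20 nt to 22 nt summed, and leaving out each library.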

Additional observations from a re-analysis of the deposited data

Results flagged for a closer look

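The difference between the 2 alleles was tested for each of the 7 genes and for the windows of their arms. It passed an adjusted p of 0.01 at 1 window, that of miR398b-3p, where *hot3-3* was above *hot3-2* by a log2 fold change of 0.50 ± 0.08 (edgeR adjusted p = 0.0084). The counts were 4417 and 4880 in *hot3-3* and 3521 and 3379 in *hot3-2*, and both were below the 12773 and 13762 of WT. The difference was under 2-fold, and its edgeR adjusted p was 0.019 with replicate number as a block. Reads of this window fit *MIR398c* equally, so the difference may move with their placement. The sum of *MIR398b* and *MIR398c* was at 0.16 ± 0.09 in *hot3-3* against *hot3-2* (edgeR adjusted p = 0.67). Groups of 2 libraries were too small to test a single library as an outlier.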

How the results depend on the processing

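The alternatives were run for 69 log2 fold changes of genes and arm windows, and of their 1298 values 1154 kept direction and side of the limit, 51 lost the call, 28 gained it and 65 changed sign. No value that was called changed sign. With the total count as library size the changed values were -0.12 for *MIR398a* and -0.45 for *MIR408* in *HOT3-EYFP* against *hot3-2*, 0.068 for *MIR398b* with *MIR398c* and 0.12 for *MIR397a* in *hot3-2*, and -0.29 for the miR398a-5p window and -0.22 for the miR408-5p window in *HOT3-EYFP* against WT. With counts in other MIR genes as library size they were 0.051 for *MIR398b* with *MIR398c* and 0.10 for *MIR397a* in *hot3-2*, and 0.48 for *MIR398b* with *MIR398c*, 0.33 for *MIR398b* and 0.13 for *MIR408* at 22 nt in *HOT3-EYFP* against WT. With counts outside rDNA and organelles they were -0.061 for *MIR398b* with *MIR398c* and -0.051 for *MIR857* in *hot3-3*, 0.084 for *MIR398b* with *MIR398c* in *HOT3-EYFP* against WT and -0.062 for the miR398b-5p window in *hot3-2*. With only the window of most counts they were 0.34 for *MIR398b* in *hot3-3* and 0.17 in *HOT3-EYFP* against WT, 0.58 and 0.24 for *MIR398b* with *MIR398c* in *hot3-2* and *HOT3-EYFP* against WT, -0.19 for *MIR408* in *HOT3-EYFP* against *hot3-2*, and 0.028 and 0.30 for *MIR398b* at 20 nt in *hot3-2* and *hot3-3*. Features of at least 50 counts gave -0.32 for *MIR408* in *HOT3-EYFP* against *hot3-2* and 0.0071 for *MIR398b* at 20 nt in *hot3-3*. *MIR398b* with *MIR398c* stood at -0.059 in *hot3-3* and 0.043 in *HOT3-EYFP* with 20 nt to 22 nt summed, and at 0.018 in *HOT3-EYFP* with either the size factors or the Wald test of DESeq2. The miR398b-5p window in *hot3-2* was at -0.041 with each of these and at -0.032 with no filter beyond 1 count, where the miR398a-5p window in *HOT3-EYFP* against WT was at -0.071.

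With each library left out in turn, values ranged in *hot3-2* from -0.054 to 0.87 for *MIR398c*, -0.11 to 0.80 for *MIR397b*, -1.70 to 0.52 for *MIR397a*, -1.02 to 0.72 for *MIR857* and -0.29 to 0.21 for the miR398b-5p window. In *hot3-3* they ranged from -0.038 to 0.060 for *MIR398b* with *MIR398c* and -0.99 to 1.11 for *MIR857*. In *HOT3-EYFP* against WT they ranged from -0.073 to 0.058 for *MIR398b* with *MIR398c*, -0.13 to 1.62 for *MIR397a*, -1.63 to 0.10 for *MIR857*, -0.26 to 0.16 for *MIR408* at 22 nt and -0.065 to 0.052 for the miR398a-5p window. In *HOT3-EYFP* against *hot3-2* the range was -0.0092 to 0.094 for *MIR408*.

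The number of the 7 genes called at 21 nt was 1 for each allele against WT and 0 in the other comparisons. With a limit of 0.05 on the adjusted p alone it was 3 in *hot3-2*, 3 in *hot3-3*, 2 in *HOT3-EYFP* against WT, 1 in *HOT3-EYFP* against *hot3-2* and 3 in both alleles against WT and *HOT3-EYFP*. It was 0 in *hot3-2* with the total count as library size, 0 in *hot3-3* with counts in other MIR genes as library size, 1 in *HOT3-EYFP* against WT with features of at least 50 counts, and 1 in *HOT3-EYFP* against *hot3-2* and in both alleles with only the window of most counts. With a library left out it was 0 to 2 in *hot3-2*, 0 to 1 in *hot3-3* and 0 in the other 4 comparisons. At 20 nt, where no gene was called, a limit of 0.05 on the adjusted p alone gave 2 in *hot3-2*, 2 in *hot3-3*, 1 in *HOT3-EYFP* against *hot3-2* and 1 in both alleles. Counts in other MIR genes as library size gave 3, 2 and 1 in *hot3-2*, *hot3-3* and both alleles, only the window of most counts gave 1 in *hot3-3* and 1 in both alleles, and features of at least 50 counts gave 1 in *HOT3-EYFP* against *hot3-2* and 1 in both alleles. With a library left out the number at 20 nt was 0 to 1 in *hot3-2*, *HOT3-EYFP* against *hot3-2* and both alleles, and 0 in the others. At 22 nt the total count as library size gave 0 in *hot3-2* and in *HOT3-EYFP* against *hot3-2*, where features of at least 50 counts gave 0 as well. In *hot3-3* at 22 nt 1 gene was called at an adjusted p under 0.05, at an unadjusted p under 0.01 with the fold limit, and with only the window of most counts. With a library left out the number at 22 nt was 0 to 1 in *hot3-2* and *HOT3-EYFP* against *hot3-2*, 1 in both alleles and 0 in the others. Where a library is left out, the remaining 1 is assumed to vary like the other groups.

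Scaling moved the split of all calls at 21 nt. In *hot3-2* 52.4% of 336 calls were higher, against 69.5% with the total count and 67.5% with counts in other MIR genes, and in *HOT3-EYFP* against *hot3-2* 60.1% of 469 calls, against 29.2% and 72.3%. In *hot3-3* 61.5% of 265 calls were higher and 83.0% with counts in other MIR genes, and in both alleles 48.4% of 498 and 71.4% with the total count. In *HOT3-EYFP* against WT 38.7% of 31 calls were higher, against 18.2% with the total count, 56.8% with counts outside rDNA and organelles and 94.5% of 146 with counts in other MIR genes.

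Replicate numbers did not pair the libraries, since the correlations of same-numbered deviations were -0.068 to 0.013. With replicate number as a block the numbers called at 21 nt were 1 in *hot3-2* and *hot3-3* and 0 in the others, as without it, and *MIR398a* was at -1.22 in *hot3-2* (edgeR adjusted p = 0.0045) and -1.23 in *hot3-3* (adjusted p = 0.0051). The miR398a-3p window in *HOT3-EYFP* against *hot3-2* was at 1.19 (adjusted p = 0.016) and lost its call, as did *PETE2* (-1.68, adjusted p = 0.014) and *MIR827* (-1.49, adjusted p = 0.012) in *hot3-2* and *MIR399c* in *HOT3-EYFP* against *hot3-2* (1.62, adjusted p = 0.012).

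With 2 libraries per genotype and no unique molecules counted, genes with few counts (*MIR397a*, *MIR397b* and *MIR857*) gave wide errors. Identical strands limit *MIR398b* and *MIR398c* to their sum.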
